A study of Rattus norvegicus with 12 samples.

Results

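The TRIM genes were described as a family in rat atrial fibroblasts treated with angiotensin II (AngII) alone or together with a mitochondrial-derived peptide. The family was taken as every listed gene whose symbol begins with Trim and a number, which gave 59 of the 22850 features in the read count and FPKM tables. The symbol alone decided membership, but Trim15 was selected on its level in the AngII+MOTS-c libraries, so its differences are given as a description with no test. This holds for HNG too, since that comparison uses the same AngII libraries that the choice of Trim15 rested on. Fibroblasts had been separated from the atria of Sprague-Dawley rats aged 1 to 3 days by differential adhesion, which enriches fibroblasts without sorting out other attached cells. The 3 treatments were AngII (1 μmol/L), AngII+HNG (the humanin analogue HNG at 10 μmol/L) and AngII+MOTS-c (MOTS-c at 5 μmol/L), with each peptide added 1 h before AngII and all cells kept for 48 h in medium with 2% FBS. Each treatment had 4 libraries, named here by their replicate number. All 3 groups received AngII, so untreated cells were not analysed here. The question was which TRIM genes these cells transcribed and which of them differed when HNG or MOTS-c was added to AngII.

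TRIM proteins carry a RING finger, 1 or more B-boxes and a coiled coil, followed by a C-terminal domain that binds the target, and most of them act as E3 ligases that pass ubiquitin from an E2 enzyme to that target. The C-terminal domain defines the classes. PRY-SPRY proteins include many antiviral factors, COS-box proteins bind microtubules or the sarcomere, PHD-bromodomain proteins read histones and repress transcription, and NHL proteins act in RNA control and protein turnover. TRIM15, a PRY-SPRY protein, is known as a component of focal adhesions, where it takes part in their turnover and in cell migration.

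The promoters of Trim34 and Trim21 are printed first, since Trim34 was the member with a called change under HNG and Trim21 held the same motif next to its start without a called change. Both came from the RefSeq promoter table of build GRCr8, which spans 250 bases before to 50 bases after the annotated start and matched 48 of the 59 members. Capitals mark matches to GAAANNGAAA, the core of the interferon-stimulated response element, or its reverse TTTCNNTTTC. Both strands were searched and overlapping matches were joined. The Trim34 window lay on the forward strand at chr1:168118793-168119092 and the Trim21 window on the reverse strand at chr1:166399322-166399621.
Trim34: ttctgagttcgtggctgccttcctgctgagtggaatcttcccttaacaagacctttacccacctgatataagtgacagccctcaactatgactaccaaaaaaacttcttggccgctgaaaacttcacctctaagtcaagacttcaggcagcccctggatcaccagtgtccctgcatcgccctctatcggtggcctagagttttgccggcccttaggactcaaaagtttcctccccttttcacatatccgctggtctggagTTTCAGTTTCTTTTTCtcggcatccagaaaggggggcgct
Trim21: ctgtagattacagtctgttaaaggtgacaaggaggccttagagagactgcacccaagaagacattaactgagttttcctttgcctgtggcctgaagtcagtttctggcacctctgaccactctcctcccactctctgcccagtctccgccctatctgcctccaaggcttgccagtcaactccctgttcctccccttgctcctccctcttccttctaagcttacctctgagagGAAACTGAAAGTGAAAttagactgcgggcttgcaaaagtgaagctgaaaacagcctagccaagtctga
Each window held 2 overlapping matches, at bases 261 to 276 for Trim34, past the start, and at bases 233 to 248 for Trim21, just before it. The motif was found in 4 of the 48 TRIM promoters (8.33%), those of Trim21, Trim26, Trim34 and Trim40, and in 1312 of all 33469 promoters of the table (3.92%). These matches describe the letters of the windows and were not tested for binding. Trim15 had no entry in the table.

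The libraries held 27960586 to 38322354 counted reads, and 3 counts, the limit below which a level could not be told from 0, corresponded to 0.0783 to 0.107 CPM, the counts per 1000000 of the scaled library total. Libraries of the same treatment differed by more than counting noise, and AngII+HNG replicate 3 stood apart, with a chi-square of 14.3 to 19.4 per gene in its 3 pairs against 4.40 to 9.0 in the other 15 pairs. Results with HNG are therefore given with and without it below where they rest on it, and without it 6.36% of all genes were called with HNG. The fibroblast label was checked with 10 markers, whose summed level was 63011 to 71055 CPM over the 12 libraries, with none at 0. Markers of other cells were present too. Cardiomyocyte markers summed to 6476 to 8546 CPM. The 10 macrophage markers summed to 226 to 272 CPM with AngII, 315 to 411 CPM with AngII+HNG and 224 to 270 CPM with AngII+MOTS-c. The 7 endothelial markers summed to 69.1 to 77.9, 88.8 to 98.0 and 72.6 to 77.3 CPM in the same order. By the edgeR test described below, the endothelial genes Kdr (0.43), Tek (0.40) and Tie1 (0.42), the fibroblast genes Tcf21 (0.28) and Thy1 (0.17) and the cardiomyocyte gene Tnni3 (0.43) rose with HNG on the log2 scale, with adjusted p-values of 0.00347 to 0.0275. Of these lists, 7 of 10 fibroblast, 6 of 7 endothelial and 8 of 10 cardiomyocyte markers were higher. Their median log2 fold changes were 0.04, 0.25 and 0.06. The calls were 20%, 42.9% and 10% of these lists against 5.98% of all genes. The mean fibroblast sum was 66794 CPM with AngII and 66664 CPM with AngII+HNG. Between the peptides, Tcf21, Thy1, Tek, Tie1, Tnni3 and the macrophage genes Aif1, Cd68, Lyz2 and Mrc1 were lower and the smooth muscle gene Cnn1 was higher with AngII+MOTS-c, with edgeR adjusted p-values of 0.000833 to 0.0209. In these lists 7 of 10 fibroblast, 7 of 7 endothelial, 9 of 10 cardiomyocyte and 7 of 9 macrophage markers were lower with AngII+MOTS-c. Of the smooth muscle and pericyte markers 5 of 7 were higher. In bulk RNA, fewer cells of a type and less RNA per cell cannot be told apart.

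Most of the family was transcribed in these cells. A total of 46 members (78.0%) had enough counts to be tested, against 14524 of 22850 features (63.6%) in the comparison of AngII+HNG with AngII, and 34 had a mean of at least 1 FPKM, a level divided by gene length. The highest FPKM belonged to Trim28, the corepressor KAP1 that serves KRAB zinc finger proteins, at 75.1 ± 2.77 FPKM (SD, n = 12 libraries). Trim35 followed at 30.5 ± 0.935 FPKM, and its range did not overlap with that of Trim28 or with that of Trim27 at 26.1 ± 1.45 FPKM. Trim27, the RET finger protein, and Trim47 at 25.1 ± 2.13 FPKM overlapped with each other. Below them lay the muscle ligase Trim55 at 17.2 ± 1.29 FPKM, Trim44 at 15.3 ± 0.608, Trim8 at 15.2 ± 0.668, Trim3 at 13.5 ± 0.909, Trim5 at 13.2 ± 0.514 and Trim59 at 12.1 ± 0.897 FPKM. Among these, each overlapped with the next in the order, so neighbouring ranks were not separated. The ranges of Trim55, Trim44 and Trim8 lay above that of Trim59, and that of Trim55 also lay above that of Trim5. The range of Trim55 lay below that of Trim47.

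**Figure D1:**
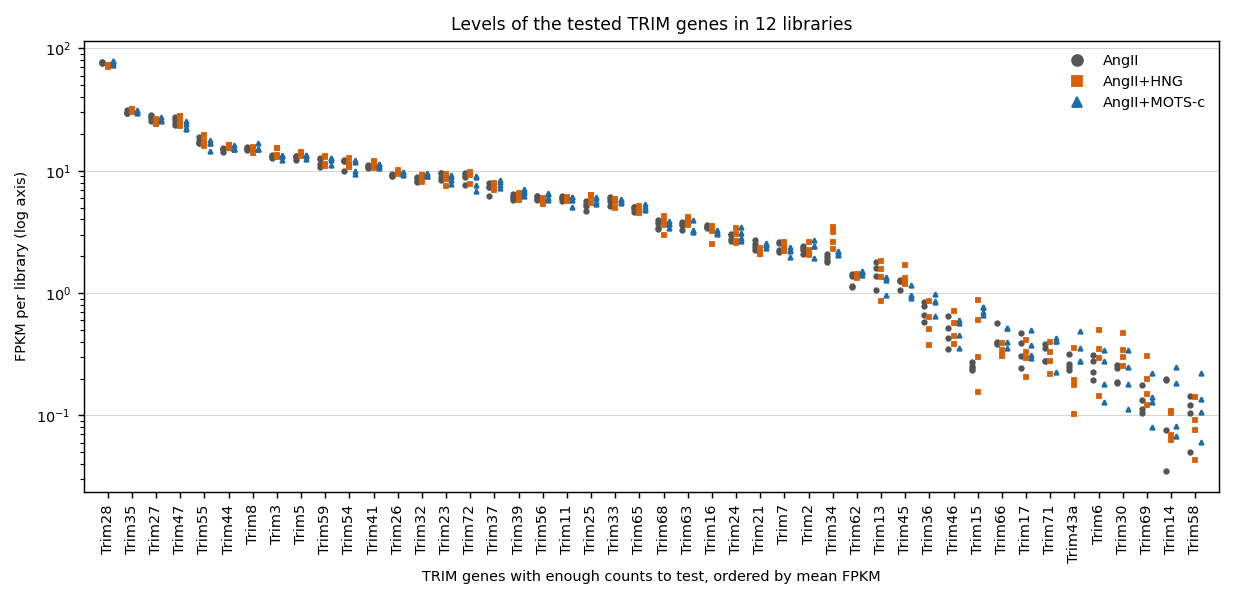
FPKM of the 46 tested TRIM genes in each of the 12 libraries on a log axis, ordered by their mean, with circles for AngII, squares for AngII+HNG and triangles for AngII+MOTS-c. Trim28 stood apart at the top with 70.2 to 78.6 FPKM, and the spread between libraries was widest among the genes under 1 FPKM, where Trim15 lay.

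The other 13 members were not tested because of low counts. Trim31, Trim40, Trim42 and Trim60 had 0 counts in all 12 libraries, and the other 9 were Trim9, Trim10, Trim29, Trim30c, Trim38, Trim50, Trim52, Trim67 and Trim80. The highest count of any of the 13 in 1 library was 12, for Trim10. By class, 23 of 28 PRY-SPRY members were tested, all 4 PHD-bromodomain members, all 4 NHL members, all 3 MuRF ligases and 2 of 4 COS-FN3-SPRY members. Of the members without a RING 3 of 4 were tested, and of those with no further domain 2 of 5. Trim23, Trim37 and Trim45, each the sole member of its class, and the membrane-anchored Trim13 and Trim59 were tested as well.

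Trim15 was a low gene whose level was uniform in AngII and in AngII+MOTS-c and uneven in AngII+HNG. In the AngII libraries it had 43, 35, 32 and 39 counts in replicates 1 to 4, or 1.13, 0.999, 0.973 and 1.04 CPM. In the AngII+MOTS-c libraries it had 84, 102, 78 and 77 counts, or 2.43, 2.72, 2.73 and 2.36 CPM. All 4 of these libraries lay above all 4 AngII libraries, and the log2 fold change was 1.30 (SE 0.15), with means of 2.56 ± 0.193 and 1.04 ± 0.0687 CPM (SD, n = 4 each). This contrast is the one that Trim15 was chosen by, so no test is given for it. Such a choice favours a gene with little spread within AngII and within AngII+MOTS-c, so the uniform level there is a description too.

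With AngII+HNG the counts of Trim15 were 88, 81, 21 and 43, or 3.13, 2.12, 0.635 and 1.21 CPM. Replicates 1 and 2 lay far above every AngII library, replicate 4 lay just above the highest of them and replicate 3 lay below them all. The exact 95% Poisson interval of the count was 70.6 to 108 in replicate 1, 64.3 to 101 in replicate 2, 13.0 to 32.1 in replicate 3 and 31.1 to 57.9 in replicate 4, so counting error, which is all that these intervals cover, did not span the distance between replicates 2 and 3. The 4.93-fold range between these 4 libraries, 2.30 on the log2 scale, was the widest of the 46 tested members in that treatment, whose median range was 0.25. Within AngII and within AngII+MOTS-c the range of Trim15 was 0.22 and 0.21 on the log2 scale and ranked 25 and 23 of 46. Those libraries were the ones used to choose the gene, and the difference of the AngII+HNG range from theirs was not tested.

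Against AngII, the log2 fold change of Trim15 with HNG was 0.76 (SE 0.37). It was 1.04 without AngII+HNG replicate 3 and 0.37 without AngII+HNG replicate 1. Between the peptides, Trim15 was 0.55 higher on the log2 scale with AngII+MOTS-c than with AngII+HNG (SE 0.34), a description because the AngII+MOTS-c libraries had picked the gene. That value was 0.94 without AngII+HNG replicate 1, 0.40 without replicate 4 and 0.27 without replicate 3. Over all 12 libraries the values left a gap, with 6 libraries at 1.21 CPM or less and 6 at 2.12 CPM or more.

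**Figure D2:**
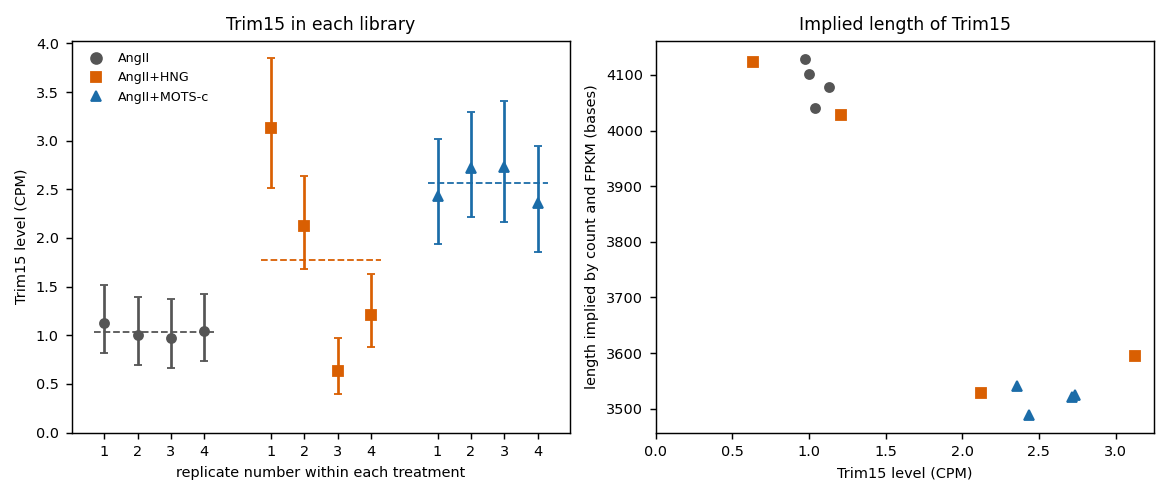
Trim15 level in CPM in each library with its exact 95% Poisson interval as error bars and the mean of each treatment as a dashed line (left), and the gene length in bases implied by the count and the FPKM of the same library against its CPM (right). The AngII+MOTS-c libraries lay at 2.36 to 2.73 CPM and the AngII libraries at 0.973 to 1.13 CPM, while the 4 AngII+HNG libraries ran from 0.635 to 3.13 CPM.

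The deposited FPKM values added a second observation on Trim15. Dividing each count by the FPKM and the library total returns the length that the authors' FPKM had used for the gene in that library. For Trim15 this length was 4042 to 4130 bases in the 4 AngII libraries and 4028 and 4124 bases in replicates 4 and 3 of AngII+HNG. It was 3594 and 3528 bases in replicates 1 and 2 of AngII+HNG and 3489 to 3541 bases in the 4 AngII+MOTS-c libraries. The libraries with more Trim15 reads were therefore the ones with the shorter length. Transcript forms were not analysed here, and whether a different form was counted was not tested. Of 13053 genes with at least 20 counts in every library, the longest length was 1.02 times the shortest at the median, and 9.93% of them reached the ratio of Trim15 or more. Among 40 TRIM members 4 did so, which were Trim69 (2.19 times), Trim36 (1.81 times), Trim13 (1.58 times) and Trim15 (1.18 times). The FPKM of these 4 genes did not follow their counts alone, and comparisons were made on counts.

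The genes around Trim15 were looked up in the RefSeq gene table, which found 58 of the 59 members. Trim15 belonged to a run of 5 adjacent protein-coding TRIM genes, in the order Trim31, Trim40, Trim10, Trim15 and Trim26. In that table the spans of Trim10, of Trim26 and of the pseudogene Trim15-ps1 overlapped with that of Trim15, so reads of these genes could be assigned to one another and the count of Trim15 is uncertain to that extent. The use of strand in counting is not given in the sources used here. Trim10, known from red blood cell formation, had 2 to 12 counts per library and did not reach the limit for testing. Trim26 was well expressed at 45.1 to 50.3 CPM over the 12 libraries, with log2 differences from AngII of 0.06 for both peptides (edgeR adjusted p = 0.48 with HNG and 0.924 with MOTS-c). Trim31 and Trim40 had 0 counts. The remaining listed neighbours, pseudogenes and a small nucleolar RNA, were not among the counted genes.

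With HNG, 1 of the 46 tested members passed the test (edgeR quasi-likelihood test, p adjusted over all genes by the method of Benjamini and Hochberg). Trim34, a PRY-SPRY protein of the Trim5 and Trim6 gene cluster, rose. Over all genes, 5.98% had an adjusted p below 0.05 in this comparison, so 1 of 46, or 2.17%, was below the background. At an unadjusted p below 0.05 there were 7 members (15.2%), namely Trim25, Trim30 and Trim34 higher and Trim27, Trim28, Trim56 and Trim66 lower, against a background of 20.3%. The 2 treatments did not overlap for Trim28, Trim30, Trim34 and Trim44, or 8.70% of members against 13.6% of all genes. The median log2 fold change of the 46 members was 0.0087, with 25 higher and 21 lower, beside 0.0043 over all genes. The shares called, at an unadjusted p and without overlap were each below those of all genes, while the share of higher members was 54.3% beside 51.3%. Without AngII+HNG replicate 3, Trim34 was again the called member among the 45 other than Trim15.

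Trim34 had 4.99, 5.74, 5.41 and 5.12 CPM in the AngII libraries and 7.15, 6.29, 8.52 and 9.39 CPM in the AngII+HNG libraries. The groups did not overlap, and replicates 3 and 4 of AngII+HNG were the highest. The log2 fold change was 0.56 (SE 0.13), with an edgeR adjusted p = 0.0188, and an exact two-sided permutation test of the log2 level gave p = 0.0286, the smallest value that 4 against 4 libraries allow. The adjusted p was 0.0718 without AngII replicate 1, 0.0508 without AngII replicate 3 and 0.0536 without AngII+HNG replicate 4. Without AngII+HNG replicate 3 the log2 fold change was 0.52 with an edgeR adjusted p = 0.0382, and it stayed between 0.46 and 0.66 in all fits that left out a library. With AngII+MOTS-c, Trim34 had 5.56, 5.84, 5.92 and 6.03 CPM, a log2 fold change of 0.14 from AngII (edgeR adjusted p = 0.926). The macrophage markers summed to 315, 317, 352 and 411 CPM in AngII+HNG replicates 1 to 4 and to 272 CPM at most in AngII. Their sum and that of the endothelial markers were thus higher with HNG, as were Trim34 and Trim30. Single libraries did not always follow, since AngII replicate 4 had the highest macrophage sum and the lowest Trim30 (0.933 CPM) of that treatment. The part of either marker set in these values was not tested.

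**Figure D3:**
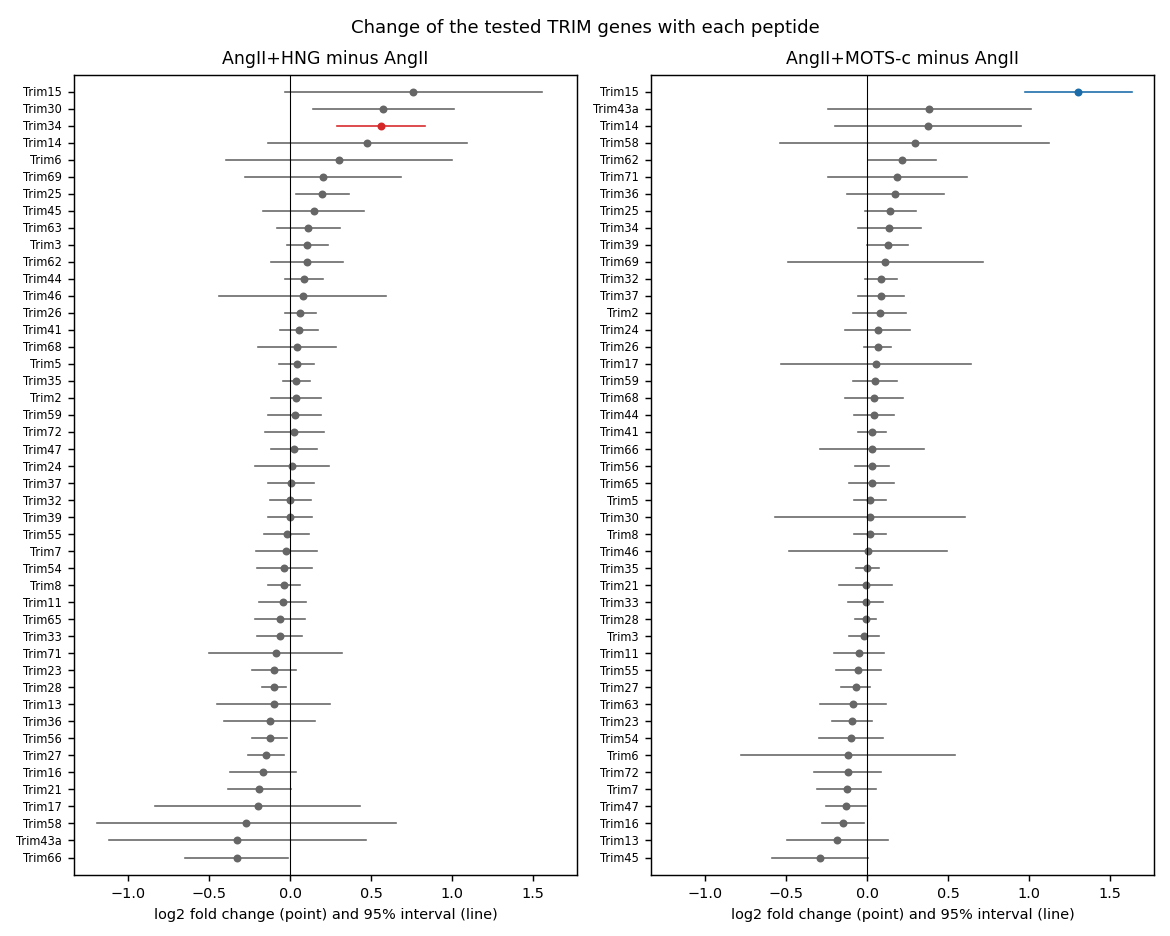
Log2 fold change of the 46 tested TRIM genes with its 95% interval, for AngII+HNG minus AngII (left) and AngII+MOTS-c minus AngII (right), each panel ordered by its own values. Trim34 in red was the called member with HNG at 0.56, and Trim15 in blue is a description with MOTS-c at 1.30, where the next highest member stood at 0.38.

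Trim34 lies in a run of adjacent genes with Trim6, Trim5, Trim30c and Trim30d. Trim30d was not among the counted genes, and Trim30 was the member not found in the gene table, so its position is not given. These genes are close paralogs, so their reads could be split between them and each value is uncertain to that extent. Trim30, whose mouse counterpart restrains Toll-like receptor signalling, had 1.10, 1.08, 1.03 and 0.933 CPM with AngII and 1.39, 1.55, 1.18 and 2.05 CPM with AngII+HNG. Its groups did not overlap either, and its log2 fold change was 0.58 (SE 0.20, edgeR adjusted p = 0.125), or 0.68 without AngII+HNG replicate 3 (edgeR adjusted p = 0.0747). With AngII+MOTS-c it had 1.13, 0.773, 0.631 and 1.65 CPM, a range that took in all the AngII libraries. Trim5, known for blocking retroviral capsids, was level throughout, at 32.7 to 35.6 CPM in AngII, 34.5 to 37.6 CPM in AngII+HNG and 33.1 to 36.2 CPM in AngII+MOTS-c. Its log2 fold change with HNG was 0.04 (edgeR adjusted p = 0.726). Trim6 varied from 0.394 to 1.28 CPM within AngII+HNG and had a log2 fold change of 0.30 (edgeR adjusted p = 0.674). The differences between members were not tested.

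The other antiviral members gave small values. Trim25, the ligase of the RNA sensor RIG-I, had 13.4 ± 1.04 CPM in AngII, 15.4 ± 0.911 CPM in AngII+HNG and 14.8 ± 0.933 CPM in AngII+MOTS-c, a log2 fold change of 0.20 with HNG (edgeR adjusted p = 0.161). Trim21, the cytosolic antibody receptor whose promoter is printed above, was lower with HNG, at 9.37 ± 0.623 CPM against 10.7 ± 0.961 CPM, a log2 fold change of -0.19 (edgeR adjusted p = 0.254). The log2 fold changes of Trim21 and Trim34 thus differed in sign, but that of Trim21 was not called and its groups overlapped. Their motif matches also differed in position and strand. Trim26 and Trim40, which also held the motif, were at 0.06 on the log2 scale and at 0 counts. The part of the motif in these values was not tested.

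**Figure D4:**
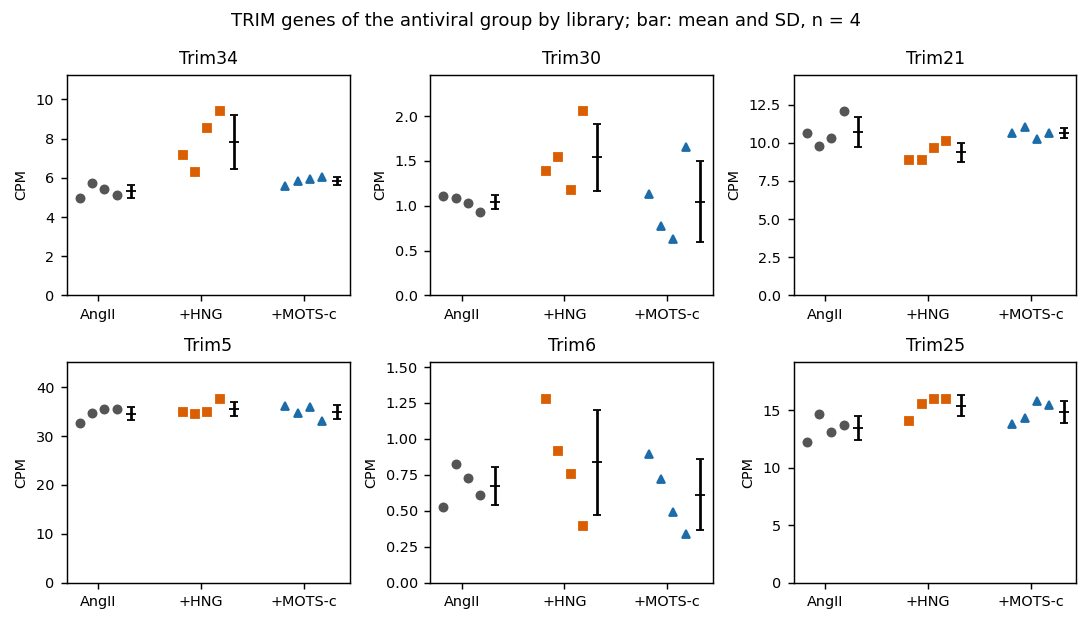
CPM of 6 TRIM genes of the antiviral group in every library, with the mean and SD of each treatment (n = 4) as a black bar beside the points. Trim34 and Trim30 lay higher in all 4 AngII+HNG libraries than in any AngII library, while Trim5, Trim6, Trim21 and Trim25 overlapped between these treatments.

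A list of 22 interferon-induced genes served as the pathway around these members. With HNG 21 were tested, 18 were higher and 3 lower, or 85.7% higher beside 51.3% of all genes, with a median log2 fold change of 0.21 beside 0.0043. None of the 18 passed the edgeR test after adjustment, 8 of the 21 (38.1%) had an unadjusted p below 0.05 against 20.3% of all genes, and Ifit2, an interferon-induced inhibitor of translation, fell by 0.22 (adjusted p = 0.0369). Without AngII+HNG replicate 3, 19 were higher and 2 lower, with a median of 0.13, and 6 (28.6% against 20.3% of all genes) had an unadjusted p below 0.05. Macrophage markers moved with this list, since 7 of the 9 tested were higher with HNG, at a median of 0.37, and Cd68, Lyz2, Mrc1 and Ptprc rose by the edgeR test. Endothelial markers did too, with 6 of 7 higher at a median of 0.25 and Kdr, Tek and Tie1 called. The part of either in the values of the list was not tested. With MOTS-c 19 were tested and 0 passed in edgeR, with 1 at an unadjusted p below 0.05 (5.26% against 5.05% of all genes). Between the peptides 1 of 21 passed (4.76% against 4.41%). Bst2, the tether that holds budding virions at the cell surface, was lower with AngII+MOTS-c at 2.57 ± 0.40 CPM than with AngII+HNG at 3.93 ± 0.535 CPM (SD, n = 4 each, edgeR adjusted p = 0.036), a call that was lost without AngII+HNG replicate 3. Of 13 tested genes of RIG-I, MDA5 and STING signalling, the kinase gene Ikbke rose with HNG by 0.28 on the log2 scale (edgeR adjusted p = 0.0141), or 7.69% of the list, close to the 5.98% of all genes. In edgeR 0 passed in the other comparisons. At an unadjusted p below 0.05 there were 2 of the 13 for HNG against AngII (15.4% against 20.3% of all genes). There were 2 for MOTS-c against AngII (15.4% against 5.05%) and 1 for MOTS-c against HNG (7.69% against 19.3%). The last was 0 without AngII+HNG replicate 3 (against 18.6%).

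The largest falls among members with HNG were those of low genes and did not pass the test. Trim66, a PHD-bromodomain protein of the male germ line, had 5.49, 3.68, 4.04 and 4.08 CPM with AngII and 3.48, 3.98, 3.08 and 3.18 CPM with AngII+HNG, a log2 fold change of -0.33 (edgeR adjusted p = 0.224), or -0.20 without AngII replicate 1. Trim43a had 0.391 ± 0.0482 against 0.308 ± 0.147 CPM and a log2 fold change of -0.33 (edgeR adjusted p = 0.689), which was -0.11 without AngII+HNG replicate 3 and -0.68 without AngII+HNG replicate 4. Trim58, known from the maturation of red blood cells, had 0.315 ± 0.0917 against 0.26 ± 0.12 CPM and a log2 fold change of -0.27 (edgeR adjusted p = 0.792). AngII+HNG replicate 3 decided the sign for Trim58, whose log2 fold change was 0.0046 without it, -0.14 without AngII replicate 1 and -0.49 without AngII+HNG replicate 4. Trim44, which did not overlap between the treatments, had 18.7 ± 0.581 CPM with AngII and 19.8 ± 0.414 CPM with AngII+HNG, a log2 fold change of 0.09 (edgeR adjusted p = 0.413).

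With MOTS-c, 0 of the 45 tested members other than Trim15 had an adjusted p below 0.05 in edgeR or in DESeq2. The share over all genes in edgeR, 0.0069%, holds no gene but the one chosen by this contrast, so nothing is read from it. Of these 45, 3 had an unadjusted p below 0.05 (6.67% against 5.05% of all genes), with Trim62 higher and Trim16 and Trim47 lower. The groups did not overlap for Trim16 and Trim39, or 4.44% of the 45 against 3.44% of all genes. Among the 45, 28 were higher and 17 lower, with a median log2 fold change of 0.027 beside -0.00076 over all genes.

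The members that followed Trim15 in size had low counts. Trim43a was 0.38 higher on the log2 scale with MOTS-c (SE 0.29, edgeR adjusted p = 0.931), or 0.19 higher without AngII+MOTS-c replicate 4. Trim14, which lacks a RING and acts as an adaptor at mitochondria, was 0.37 higher (edgeR adjusted p = 0.926), or 0.18 without AngII replicate 4 and 0.24 without AngII+MOTS-c replicate 1. The largest falls were those of Trim45 at -0.29, Trim13, an endoplasmic reticulum protein, at -0.18 and Trim16 at -0.15. Trim16 had 13.9, 14.4, 13.7 and 13.9 CPM with AngII and 12.2, 12.5, 12.4 and 13.3 CPM with AngII+MOTS-c. Those groups did not overlap, yet the edgeR adjusted p was 0.924. Trim39 had 21.8 ± 1.11 CPM with AngII and 23.8 ± 1.08 CPM with AngII+MOTS-c, a log2 fold change of 0.13 (edgeR adjusted p = 0.924).

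Set against each other directly, AngII+MOTS-c and AngII+HNG differed for 0 of 46 members in edgeR, where 4.41% of all genes passed. At an unadjusted p below 0.05 there were 7 members (15.2%) against 19.3% of all genes, higher with MOTS-c for Trim21, Trim28, Trim56 and Trim66 and lower for Trim34, Trim45 and Trim47. The groups did not overlap for Trim21, Trim28, Trim34, Trim45 and Trim62, or 10.9% of members against 12.5%. Trim34 was lower with AngII+MOTS-c by a log2 fold change of -0.42 (SE 0.12, edgeR adjusted p = 0.0716), and the exact permutation test gave p = 0.0286, the smallest possible. Over 17 alternatives its adjusted p ran from 0.0319 to 0.18, and 13 of them did not pass. The 4 that passed were 0.0345 in edgeR with all 12 libraries together, 0.044 with a replicate block, 0.0319 without AngII+HNG replicate 2 and 0.0405 in DESeq2. It was 0.0856 with the sum of replicates 2 and 3 and 0.133 without AngII+HNG replicate 3. The other extremes were Trim30 at -0.56 (edgeR adjusted p = 0.308), Trim45 at -0.44 (edgeR adjusted p = 0.138), Trim43a at 0.71 (edgeR adjusted p = 0.323) and Trim58 at 0.56 (edgeR adjusted p = 0.535). When single libraries were left out, these ran from -0.86 to -0.38 for Trim30, from -0.51 to -0.31 for Trim45, from 0.49 to 1.07 for Trim43a and from 0.25 to 0.79 for Trim58.

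The PHD-bromodomain members act in the nucleus, where Trim24, Trim28 and Trim33 join chromatin to repression. Trim28 had 242, 245, 237 and 241 CPM with AngII and 230, 228, 223 and 217 CPM with AngII+HNG. The groups did not overlap, with a log2 fold change of -0.10 (SE 0.03, edgeR adjusted p = 0.117), and with AngII+MOTS-c the level was 239 ± 7.06 CPM (SD, n = 4). Trim33, which acts on SMAD4 in the TGF-beta pathway, had 50.6 ± 3.58, 48.3 ± 3.70 and 50.2 ± 1.77 CPM in AngII, AngII+HNG and AngII+MOTS-c. Trim24, a coregulator of nuclear receptors, had 7.98 ± 0.472, 8.05 ± 1.11 and 8.34 ± 0.993 CPM in that order. Of 9 partners of Trim28 in gene silencing, the chromatin remodeller Chd3 fell with HNG by 0.21 on the log2 scale (edgeR adjusted p = 0.0157), which is 11.1% of the list against 5.98% of all genes. In edgeR 0 of the 9 passed in the other comparisons. In each comparison 1 of the 9 (11.1%) had an unadjusted p below 0.05, against 20.3% of all genes for HNG, 5.05% for MOTS-c and 19.3% between the peptides. Leaving out AngII+HNG replicate 3, 2 of the 9 (22.2%) did so for HNG and between the peptides, against 20.3% and 18.6% of all genes. Chd3 passed in both, or 11.1% of the list against 6.36% and 4.28% of all genes.

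The NHL members, which are linked to neurons, muscle and stem cells, did not pass the edgeR test in any comparison. At an unadjusted p below 0.05 there were 0 of 4 in each, where 20.3%, 5.05% and 19.3% of all genes passed, so with 4 members a count of 0 does not set them apart. Trim3 had 39.5 ± 1.14 CPM in AngII, 42.4 ± 3.3 CPM in AngII+HNG and 39.0 ± 1.55 CPM in AngII+MOTS-c. Trim32, mutated in a limb-girdle muscular dystrophy, had 30.9 ± 1.21, 30.9 ± 2.05 and 32.8 ± 0.775 CPM. Trim2 had 16.7 ± 0.952, 17.1 ± 1.27 and 17.6 ± 1.74 CPM, and the stem cell protein gene Trim71 had 2.57 ± 0.435, 2.40 ± 0.601 and 2.93 ± 0.761 CPM. All 4 overlapped between all treatments. The microtubule-binding COS-FN3-SPRY members were low, with Trim36 at 3.33 ± 0.216, 3.05 ± 0.402 and 3.75 ± 0.636 CPM and Trim46 at 1.56 ± 0.425, 1.64 ± 0.464 and 1.58 ± 0.339 CPM. Trim9 and Trim67 were under the limit for testing.

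The muscle TRIM genes were clearly present in these fibroblast cultures and did not pass the edgeR test in any comparison. Trim55 (MuRF2) had 46.4 ± 2.79 CPM in AngII, 45.6 ± 3.68 CPM in AngII+HNG and 44.6 ± 4.34 CPM in AngII+MOTS-c. Trim54 (MuRF3), which binds microtubules in muscle, had 17.3 ± 1.59, 16.8 ± 1.23 and 16.1 ± 1.98 CPM. Trim63 (MuRF1), the ligase of muscle atrophy, had 7.19 ± 0.455, 7.75 ± 0.514 and 6.75 ± 0.731 CPM. Trim72, the membrane repair protein MG53 of striated muscle, had 21.6 ± 2.06, 21.9 ± 2.08 and 19.8 ± 2.68 CPM. These 4 genes moved with the 10 cardiomyocyte markers, none of which was at 0 and whose summed level was 7116 to 8002 CPM in AngII, 7295 to 8546 CPM in AngII+HNG and 6476 to 8459 CPM in AngII+MOTS-c.

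Over the 12 libraries, the Pearson correlation with the summed markers was r = 0.77 for Trim54, 0.73 for Trim55, 0.71 for Trim63 and 0.88 for Trim72. The permutation p was 0.00734, 0.0082, 0.0122 and 0.00098 in that order, or 0.0109, 0.0109, 0.0122 and 0.00392 after Benjamini-Hochberg adjustment over these 4 relations. Spearman's rho was 0.60, 0.69, 0.65 and 0.65, with permutation p-values of 0.0429, 0.0156, 0.0261 and 0.0273, or 0.0429, 0.0363, 0.0363 and 0.0363 after adjustment. Without the 2 libraries farthest from the median of the markers, r was 0.51, 0.56 and 0.53 for Trim54, Trim55 and Trim63. The permutation p-values were 0.15, 0.0922 and 0.125. For Trim72 r was 0.74 with a permutation p of 0.0349. Leaving out these libraries narrows the range of the markers and leaves 10 libraries. The lower values therefore do not show whether the relations rested on the 2 libraries. With the treatment means removed, r over the 12 libraries was 0.81, 0.77, 0.67 and 0.89. AngII+MOTS-c replicate 3 had the lowest marker sum and the lowest Trim54 (14.0 CPM), Trim55 (38.3 CPM) and Trim72 (16.7 CPM), while Trim63 was lowest in AngII+MOTS-c replicate 1 (6.23 CPM). The markers and the TRIM genes share library totals, and the source of these transcripts was not tested.

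**Figure D5:**
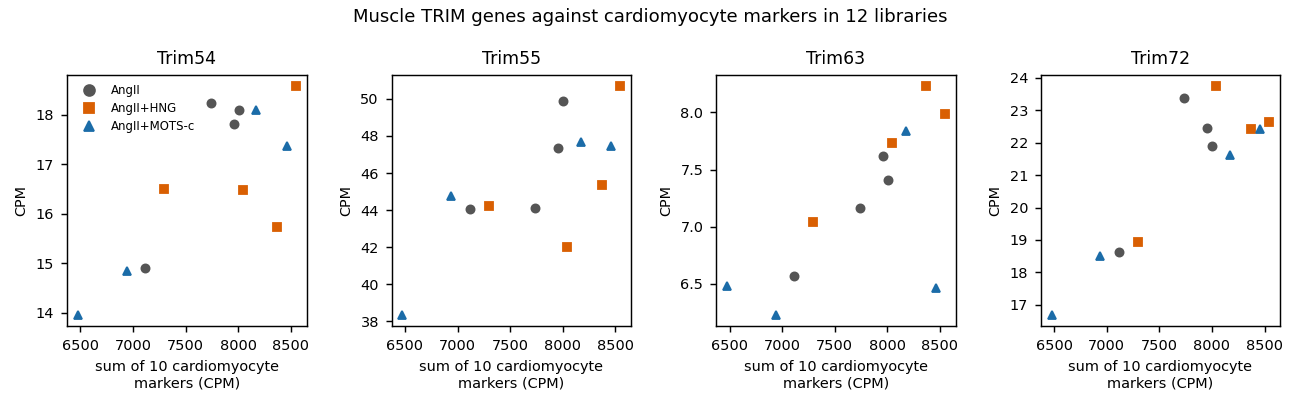
CPM of Trim54, Trim55, Trim63 and Trim72 against the summed CPM of 10 cardiomyocyte markers in the same library, 1 point per library, with circles for AngII, squares for AngII+HNG and triangles for AngII+MOTS-c. The library with the lowest marker sum, 6476 CPM, had the lowest Trim54, Trim55 and Trim72, and the treatments overlapped along both axes. The axes do not start at 0.

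The genes that work with TRIM proteins were counted from lists. Of 21 tested genes for ubiquitin, E1 and E2 enzymes, 0 passed the edgeR test in any comparison, and 3, 3 and 2 had an unadjusted p below 0.05 for HNG against AngII, MOTS-c against AngII and MOTS-c against HNG. These were 14.3%, 14.3% and 9.52% of the list beside 20.3%, 5.05% and 19.3% of all genes. Without AngII+HNG replicate 3, 1 of the 21 passed with HNG (Ube2e2, lower, 4.76% against 6.36% of all genes). In the same fits 2 with HNG (9.52% against 20.3%) and 5 between the peptides (23.8% against 18.6%) had an unadjusted p below 0.05. Of 5 tested TRIM family genes that carry other symbols, such as Mid1 and Pml, 0 passed in any comparison in edgeR. At an unadjusted p below 0.05 there were 0, 0 and 1, the last 20% of the list against 19.3% of all genes. With AngII+HNG replicate 3 left out there was 1 of 6 tested with HNG (16.7% against 20.3%). Between the peptides there were then 2 of 5 (40% against 18.6%). Among 14 partners of TRIM15 in focal adhesions and ERK signalling, 5 passed with HNG (35.7% against 5.98% of all genes) and 9 had an unadjusted p below 0.05 (64.3% against 20.3%). The focal adhesion genes Vcl (vinculin, -0.29, adjusted p = 0.00597), Fblim1 (-0.20, adjusted p = 0.0104), Vasp (-0.17, adjusted p = 0.0357) and Ptk2 (focal adhesion kinase, -0.14, adjusted p = 0.0434) fell and the kinase gene Mapk3 rose (0.13, adjusted p = 0.0457), all as log2 fold changes in edgeR. Without AngII+HNG replicate 3, 6 passed (42.9% against 6.36% of all genes), the same 5 and Pxn. Of the markers of smooth muscle and pericytes, 6 of the 7 were lower with HNG too, at a median of -0.18. Cnn1 (-0.41, edgeR adjusted p = 0.000126) and Myh11 (-0.34, edgeR adjusted p = 0.00152) fell. With MOTS-c 6 of the 7 were lower as well, at a median of -0.12. There 0 passed in edgeR and 3 (42.9% against 5.05% of all genes) had an unadjusted p below 0.05. None of the 7 was at 0, their sum was 699 to 790 CPM in AngII, 625 to 716 CPM in AngII+HNG and 607 to 735 CPM in AngII+MOTS-c, and their part in the values of the partners was not tested. The median of the 14 was -0.09 with HNG and -0.01 with MOTS-c, where 0 passed in edgeR and 1 had an unadjusted p below 0.05 (7.14% against 5.05%). Between the peptides 11 of the 14 were higher with AngII+MOTS-c, 9 had an unadjusted p below 0.05 (64.3% against 19.3%) and 1 passed (7.14% against 4.41%), or 2 without AngII+HNG replicate 3, Fblim1 and Vcl (14.3% against 4.28%). Vcl was higher with AngII+MOTS-c by 0.21 on the log2 scale (edgeR adjusted p = 0.0424).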

How the data were processed

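mRNA libraries from rat atrial fibroblasts were sequenced, 4 for each of the 3 treatments, and grouped by sample title, with doses and times from the study's methods. The authors deposited raw read counts of each gene, as whole numbers, and FPKM values scaled by gene length and sequencing depth. HISAT2, Picard 1.41 and SAMtools 0.1.18 are named in the submitters' processing notes, while the counter, its strand setting and the authors' build are not given in the sources used here. RefSeq tables of build GRCr8 gave gene order and promoters.

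Counts were fitted in R 4.3.3 with edgeR 4.0.16 (filterByExpr, TMM, glmQLFit and glmQLFTest), each comparison on its own 8 libraries without a block, with Benjamini-Hochberg adjustment over all genes tested and a threshold of 0.05. Standard errors came from the F statistic. CPM used TMM-scaled totals of all 12 libraries, and the length implied by FPKM was the count divided by FPKM and library total, scaled. Exact permutation tests used log2(CPM + 0.5), and correlations 100000 permutations (scipy 1.17.1). The script was tested on simulated data. Alternatives were DESeq2 1.42.0, scaling by RLE, omission of the low-count filter, a minimum of 10 counts per library, a joint fit of all 12 libraries, a replicate block, the sum of replicates 2 and 3, limma 3.58.1 on log2(FPKM + 1) and log2(FPKM + 0.1), and the omission of each library.

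The named genes were Trim15, members with an adjusted p below 0.05, the 10 members with the highest mean FPKM, the 3 largest changes in each direction and comparison, the COS-FN3-SPRY, MuRF, PHD-bromodomain and NHL members, members at 0 counts, up to 5 neighbours of Trim15 on each side, and pathway list genes with an adjusted p below 0.05. The planned test of Trim15 with HNG is not reported, since its AngII libraries bore on the choice of the gene. Other members and the marker genes were picked for naming once their values were known. Members, lists and rules were chosen with earlier results of these data known. The study states biological replicates but not whether equal numbers share a cell preparation, and replicates 2 and 3 share a number in their library names, so p-values measure the spread between these libraries.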

Additional observations from a re-analysis of the deposited data

Results flagged for a closer look

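Of 138 sets of 4 libraries (46 members in 3 treatments), 7 held a library far from its 3 companions by Dixon's criterion, where chance alone gives about 1 in 20 sets, or 6.9. With AngII, Trim35 was highest in replicate 3 at 121 CPM (next 115 CPM), Trim45 was lowest in replicate 1 at 2.60 CPM (next 3.07 CPM), and Trim54 was lowest in replicate 3 at 14.9 CPM (next 17.8 CPM). With AngII+HNG, Trim5 was highest in replicate 4 at 37.6 CPM (next 35.0 CPM). With AngII+MOTS-c, Trim62 was lowest in replicate 4 at 7.29 CPM (next 7.65 CPM), Trim63 was highest in replicate 2 at 7.83 CPM (next 6.48 CPM), and Trim8 was highest in replicate 3 at 60.9 CPM (next 54.0 CPM). Trim15 with AngII+HNG was not among them, since its 4 values were spread rather than 1 standing apart.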

How the results depend on the processing

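The count of TRIM members called with HNG was 1 in edgeR and in most alternatives, 2 with DESeq2 (Trim28 and Trim34), and 0 to 2 when single libraries were left out (0 without AngII replicate 1, AngII replicate 3 or AngII+HNG replicate 4, and 2 without AngII+HNG replicate 3, a count that includes the chosen Trim15 and is not read as a call of it). The count with MOTS-c, which is Trim15 and from which nothing is read because that contrast picked the gene, was 0 with DESeq2, with all 12 libraries in one fit and with the sum of replicates 2 and 3, and 0 to 1 when single libraries were left out, 0 in 7 of these 8 fits and 1 without AngII+MOTS-c replicate 1, while its log2 fold change stayed at 1.26 to 1.35 in the 15 alternatives on counts. The count between the peptides was 1 (Trim34) with DESeq2, with all 12 libraries in one fit and with the replicate block, and 0 to 1 when single libraries were left out (1 without AngII+HNG replicate 2). The log2 fold change of Trim15 with HNG was 0.37 to 1.04 when single libraries were left out (1.04 without AngII+HNG replicate 3), and that with MOTS-c was 0.46 with limma on log2(FPKM + 1), a scale on which a pseudocount above the gene's own level reduces the value. Trim58 with HNG ranged from -0.49 to 0.0046 when single libraries were left out and reversed, to 0.0046, without AngII+HNG replicate 3. Over 17 alternatives the adjusted p of Trim34 with HNG ran from 0.0024 to 0.0718. For the replicate block, libraries of equal number deviated together with correlations of -0.028 to 0.245, which does not show that the numbers pair the samples, and the block left the counts at 1 with HNG and 1 with MOTS-c and gave 1 between the peptides. Of the other values for single members, 235 kept direction and side of the threshold, 4 passed it, 3 no longer passed it and 1 reversed, and 25 without an adjusted p kept their direction. With 21 to 102 counts of Trim15 per library, depth limits its precision, and members under 3 counts cannot be told from 0.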
